A study of Rattus norvegicus with 6 samples.

Results

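The heterotrimeric G protein subunits and the regulators of G protein signaling (RGS) were examined in 2 mural cell types of the rat cortex, the vascular smooth muscle cells (VSMCs) of arterioles and the mid-capillary pericytes (mcPCs). Members were the genes whose symbols name a Gα (Gna), Gβ (Gnb), Gγ (Gng or Gngt) or RGS (Rgs) gene, and 45 of the 14607 genes listed in the RNA-Seq table met this rule. They comprised 14 Gα rows, 5 Gβ, 10 Gγ and 15 RGS genes and Rgs7bp, which encodes an RGS-binding protein and has a symbol of the same form. Gnas had 2 rows, an abundant one (ENSRNOG00000047374) and a minor one (ENSRNOG00000025889), so that the 45 rows stood for 44 symbols. Of 59 rat symbols in RefSeq that meet the rule, the other 15 had no row (Gnat1, Gnat2, Gnat3, Gng13, Gng14, Gngt1, Rgs7, Rgs9, Rgs9bp, Rgs11, Rgs12l1, Rgs13, Rgs18, Rgs21 and Rgs22l) and are not analysed here.

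A G protein-coupled receptor that binds its ligand makes a Gα subunit exchange GDP for GTP and part from its Gβγ dimer, and both then act on effectors. Gs stimulates and Gi inhibits adenylyl cyclase, and Gq/11 activates phospholipase Cβ and so releases calcium. RGS proteins speed up the hydrolysis of GTP by Gα and shorten the signal. In vascular smooth muscle these routes set tone, with the Gq/11 and G12/13 routes favoring contraction and the Gs route relaxation.

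RNA came from male Sprague-Dawley rats 4 to 5 weeks old, untreated and with no transgene or deleted gene, in 3 isolations that each pooled the cortices of 10 animals, and 3 samples of each cell type were sequenced. VSMCs were the cells of arterioles that bound a fluorescent lectin (GSA) after endothelial and myeloid cells carrying CD31 or CD11b had been depleted. mcPCs were defined by what remained of the capillary filtrate after cells carrying CD31, CD11b, GLAST or O4 had been taken out, so that any cell without these antigens, erythrocytes included, stayed with them. All 8 VSMC markers on a list for that cell (Acta2, Myh11, Tagln and others) were over 2-fold higher in VSMCs and all 7 pericyte markers (Vtn, Kcnj8, Abcc9 and others) over 2-fold higher in mcPCs, so the labels of the 2 groups matched their defining markers. The reads assigned to listed genes averaged 62.0 M per sample for VSMCs and 48.0 M for mcPCs. Erythrocyte and globin genes held 66.9% of all TPM (transcript abundance per length, scaled to the same sum in each sample) in mcPCs and 0.869% in VSMCs, which lowers the TPM of every other gene in mcPCs.

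The table gives each gene's mean over the 3 samples of a cell type and no value per sample. The spread between samples cannot be computed from such means, and no difference below was tested. Levels of different genes are compared in TPM, which are per transcript length. Cell types are compared by the log2 ratio of mean normalized counts plus 1, mcPC over VSMC, in which the median gene stood at 0.01, or by a gene's share of its family's TPM, which a common scale factor does not touch. Brackets hold 95% intervals of this ratio from the reads behind the means, which cover counting error only. In bulk RNA a lower level may mean fewer cells with a transcript or less of it per cell, and the pair cannot be told apart.

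Of the 45 members, 28 (62.2%) lay within 2-fold, close to the 64.6% of all listed genes. These 28 carried 93.0% of the members' summed TPM in VSMCs and 94.5% in mcPCs. Past 2-fold, 5 were higher in VSMCs (Gnai1, Gnb1, Rgs6, Rgs17 and Rgs7bp), or 11.1%, where 13.8% of all listed genes were. Another 12 were higher in mcPCs (Gnal, Gna14, Gna15, Gng2, Gng7, Rgs1, Rgs3, Rgs8, Rgs10, Rgs14, Rgs19 and Rgs20), or 26.7%, against 21.6% of all listed genes. Only Gng2, Rgs3, Rgs10 and Rgs19 of these reached 0.8 TPM in VSMCs. The study left genes under that level out of its final dataset. The median ratio of the members was -0.01. Of the 25 members above the median abundance of the table, 3 passed 2-fold in each direction (12%), where the background of equally abundant genes was 16.7% for VSMCs and 11.2% for mcPCs. The 3 in the mcPC direction (Rgs1, Rgs3 and Gng2) reached this abundance, a mean normalized count of 751 over both cell types, through mcPCs alone. Among the 20 less abundant members 9 were past 2-fold in the mcPC direction, which is 45% where 32.1% of all equally scarce genes were.

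**Figure D1:**
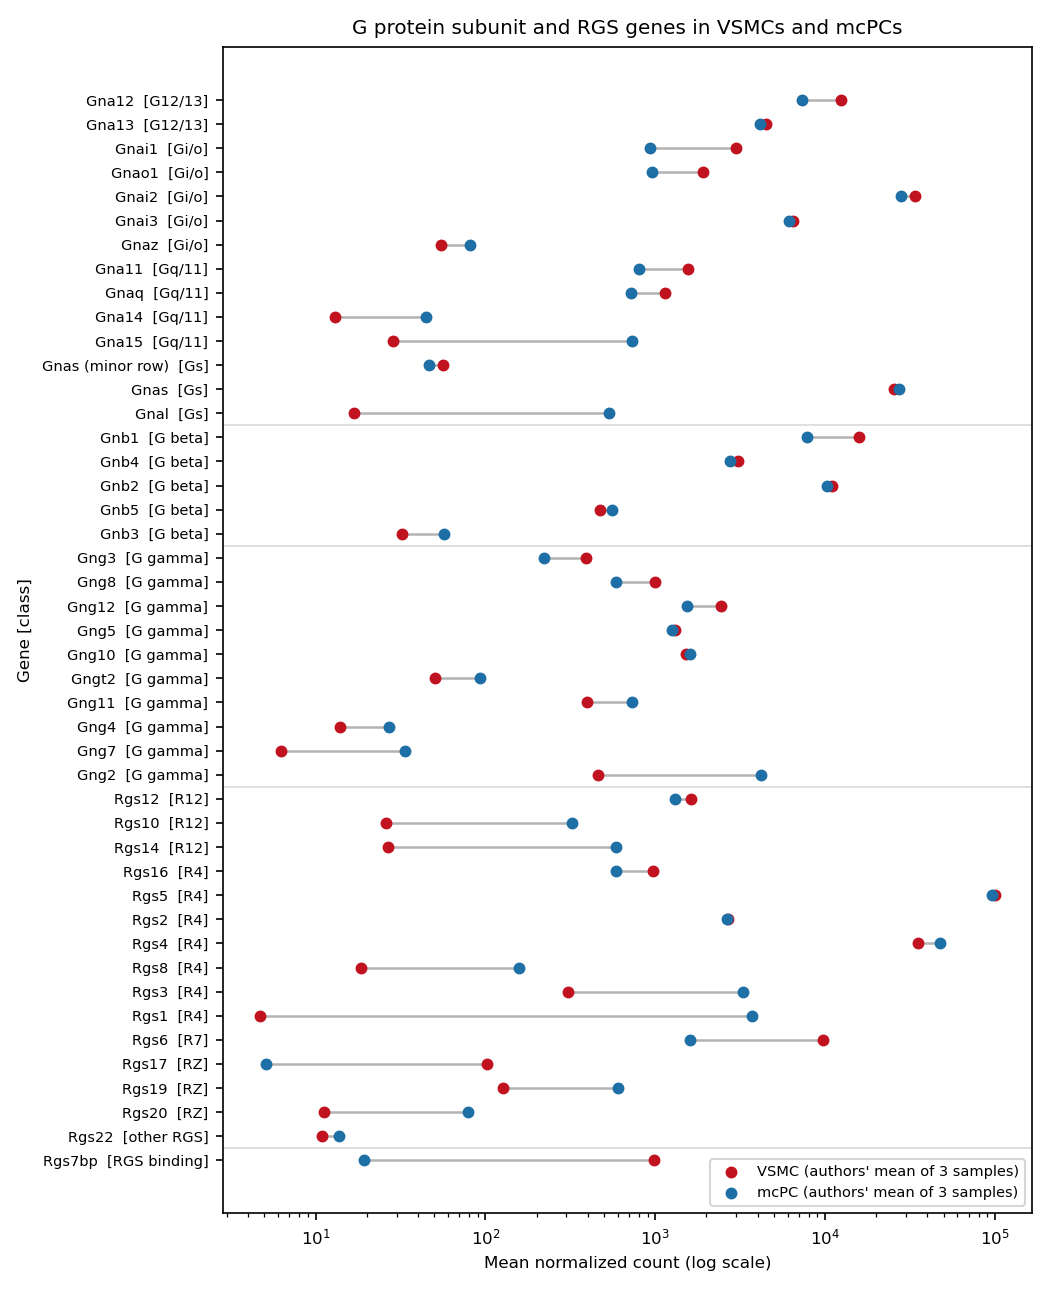
Mean normalized counts (log axis) of the 45 members in VSMCs (red) and mcPCs (blue), each point the mean of 3 samples with no spread available. Abundant genes such as Rgs5 (100207 and 96159) have nearly coinciding points, whereas Rgs1 (4.69 and 3694) and Rgs7bp (979 and 19.4) lie far apart.

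RGS expression was dominated in both cell types by the R4 subfamily, small RGS proteins made of little more than the RGS domain, and within it by Rgs5, a widely used mural cell marker. Rgs5 ranked 12th of all genes by TPM in VSMCs and 23rd in mcPCs and made up 89.8% and 85.9% of all RGS TPM. Its mean normalized counts, 100207 in VSMCs and 96159 in mcPCs, gave a ratio of -0.06 [-0.07, -0.05]. Rgs4, its neighbour on the chromosome and a regulator of Gi and Gq, came second with 447 TPM in VSMCs and 171 in mcPCs. Its mean normalized counts were 35012 and 47339 (ratio 0.44 [0.42, 0.45]), and Rgs5 exceeded it by 14.1 times in VSMCs and 9.96 times in mcPCs. Rgs2, which acts mainly on Gq, had the most even values of all members, with mean normalized counts of 2675 in VSMCs and 2649 in mcPCs (ratio -0.01 [-0.06, 0.03]). Rgs16 reached only 14.8 TPM in VSMCs and 2.66 in mcPCs, with a ratio of -0.71 [-0.81, -0.62]. The 3 leading genes Rgs5, Rgs4 and Rgs2 thus kept the same order in both cell types, and none passed 2-fold.

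The remaining R4 genes were scarce in VSMCs and higher in mcPCs. Rgs1, known from activated lymphocytes and other leukocytes, had the most unequal values of any member. Behind its means stood 6.67 reads per sample in VSMCs and 2820 in mcPCs, or 0.140 and 32.8 TPM. The mean normalized counts of 4.69 and 3694 gave a ratio of 9.34 [8.99, 10.33], higher than that of 99.96% of listed genes, and lifted Rgs1 to the fourth place among RGS genes in mcPCs. Rgs3, a longer R4 member that also binds Gβγ, was at 3.93 TPM in VSMCs and 11.95 in mcPCs (mean normalized counts 307 and 3265, ratio 3.41 [3.33, 3.50]). Rgs8, best known from neurons, was at 0.210 and 0.601 TPM (ratio 3.01 [2.74, 3.44]). Past 2-fold were thus 3 of 7 R4 genes in the mcPC direction and 0 in the VSMC direction, where 21.6% and 13.8% of all listed genes were.

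Rgs6, the R7 gene with a row, and Rgs7bp were both higher in VSMCs. R7 proteins are stable only as a dimer with Gβ5, the product of Gnb5, and Rgs7bp anchors that dimer at the plasma membrane. Rgs6 stood at 86.3 TPM in VSMCs and 3.84 in mcPCs. Its mean normalized counts were 9758 and 1610, a ratio of -2.60 [-2.65, -2.55], or 6.06-fold higher in VSMCs. Counts scaled without erythrocyte and globin genes gave -1.94. Unlike mean normalized counts, they carry no correction for transcript length, and on them the median gene stood at 0.18. The mean effective length of Rgs6 transcripts also differed, from 3257 bases in VSMCs to 4929 in mcPCs (1.51 times), the widest such gap among the members. This length is a mean over a gene's transcripts and moves with their mixture. Rgs7bp stood at 109 TPM in VSMCs and 0.631 in mcPCs, from 1385 and 14 reads per sample. Mean normalized counts of 979 and 19.4 gave a ratio of -5.59 [-6.13, -5.22], or 48.1-fold higher in VSMCs, lower than in all but 0.541% of listed genes. Their common partner Gnb5 did not share this difference, with 19.2 TPM in VSMCs, 6.37 in mcPCs and a ratio of 0.23 [0.13, 0.33]. The Rgs6 level was thus 4.49 times that of Gnb5 in VSMCs and 0.603 times in mcPCs. In mean TPM the R7 gene and the anchor of its dimer were therefore both above Gnb5 in VSMCs and both below it in mcPCs.

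The 3 RZ genes, whose products favor Gz and other Gi/o subunits, did not move together. Rgs17 had 153 reads per sample in VSMCs and 3.67 in mcPCs, or 3.59 and 0.0566 TPM, with a ratio of -4.08 [-5.34, -3.48]. Rgs19, also known as GAIP, had 4.06 TPM in VSMCs and 5.55 in mcPCs, and its mean normalized counts of 127 and 604 gave a ratio of 2.24 [2.10, 2.40]. Rgs20 was near the lower end of the table, at 0.173 and 0.359 TPM (ratio 2.72 [2.37, 3.29]). Of the R12 genes, Rgs12, a large protein with a GoLoco motif that binds inactive Gi, was at 13.3 TPM in VSMCs, where it led the class, and 2.97 in mcPCs and was within 2-fold (ratio -0.32 [-0.39, -0.26]). Rgs10, a small member known from microglia and other immune cells, had 1.41 and 5.12 TPM (ratio 3.59 [3.35, 3.95]). Rgs14, which like Rgs12 has a GoLoco motif, had 0.351 and 2.26 TPM (ratio 4.41 [4.18, 4.74]). Outside the R4 and R7 genes, then, RGS members other than Rgs12 stayed under 10 TPM in both cell types.

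Among the Gα subunits, Gnas, which encodes the stimulatory Gαs, and Gnai2, a Gi subunit, led in both cell types. The main Gnas row reached 860 TPM in VSMCs and 257 in mcPCs, with mean normalized counts of 25548 and 27331 (ratio 0.10 [0.08, 0.11]). Gnai2 reached 602 and 143 TPM, with mean normalized counts of 33554 and 27766 (ratio -0.27 [-0.29, -0.26]). Gnas TPM were thus 1.43 times those of Gnai2 in VSMCs and 1.80 times in mcPCs. Over all Gα TPM, the Gs class held 45.3% in VSMCs and 54.4% in mcPCs and the Gi/o class 41.8% and 36.3%. The direction of the Gi/o share depended on the main Gnas row, since without it Gi/o held 76.2% in VSMCs and 77.5% in mcPCs. Gnal, which encodes the olfactory and striatal relative Gαolf, was scarce in VSMCs, at 0.583 TPM in VSMCs and 5.40 in mcPCs. It had 20.3 and 425 reads per sample and a ratio of 4.91 [4.62, 5.38].

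Within the Gi/o class the mixture of subunits differed. Gnai1 stood at 82.9 TPM in VSMCs and 7.34 in mcPCs, with mean normalized counts of 2992 and 930 and a ratio of -1.68 [-1.75, -1.62], or 3.21-fold higher in VSMCs. It formed 10.4% of the Gi/o TPM in VSMCs and 4.18% in mcPCs, and Gnai2 exceeded it by 7.27 and 19.5 times. Gnai3, the third Gi subunit, had 74.5 and 19.96 TPM and a ratio of -0.08 [-0.11, -0.05]. Gnao1, the Go subunit abundant in neurons, lay just inside the 2-fold limit with 35.2 and 5.05 TPM and a ratio of -0.98 [-1.05, -0.91], and just past it at -1.06 relative to the median gene in TPM and -1.01 on counts scaled without erythrocyte genes. Gnai1 and Gnai3 were thus near each other in VSMCs, whereas in mcPCs Gnai3 was the second Gi subunit.

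The Gq/11 class was small, with 4.38% of Gα TPM in VSMCs and 3.20% in mcPCs. Gna11 had 48.5 TPM in VSMCs and 7.18 in mcPCs (ratio -0.96 [-1.03, -0.88]), and Gnaq 34.5 and 6.21 TPM (ratio -0.67 [-0.75, -0.59]), so both paralogs were present in both cells with neither past 2-fold. Gna15, a Gq-class subunit of blood cells that couples to many receptors, had 0.255 TPM in VSMCs and 1.91 in mcPCs. Its 40.3 and 539 reads per sample gave a ratio of 4.62 [4.40, 4.95], although its chromosomal neighbour Gna11 had a ratio of the other sign. Gna14 was listed at 0.177 and 0.180 TPM (ratio 1.70 [1.30, 2.27]), with a ratio of 1.73 relative to the median gene in TPM. G12/13 held 8.57% of Gα TPM in VSMCs and 6.15% in mcPCs. Gna12 made up most of it, with 136 and 22.6 TPM (ratio -0.76 [-0.79, -0.74]), and Gna13 had 27.1 and 7.22 TPM (ratio -0.11 [-0.15, -0.08]). Of the 6 subunits of the Gq/11 and G12/13 classes, the 4 abundant ones (Gna11, Gnaq, Gna12 and Gna13) therefore had ratios under 0 but within 2-fold, and the scarce Gna14 and Gna15 had ratios past 2-fold in the mcPC direction. On counts scaled without erythrocyte and globin genes Gna13 stood at 0.05, and relative to the median gene in TPM Gna11 stood at -1.02.

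The leading Gβ gene was not the same in the 2 cell types. In VSMCs Gnb1 was first with 417 TPM and Gnb2 second with 266, whereas in mcPCs Gnb2 was first with 70.8 and Gnb1 second with 58.8. Gnb1 TPM were thus 1.57 times those of Gnb2 in VSMCs and 0.831 times in mcPCs, and the Gnb1 share of Gβ TPM was 50.6% and 35.2%. The ratio of Gnb1 was -1.01 [-1.03, -0.98], which put it at the 2-fold limit (-0.86 on counts scaled without erythrocyte and globin genes), and that of Gnb2 -0.10 [-0.12, -0.08]. Gnb4 had 121 TPM in VSMCs and 30.9 in mcPCs, or 14.6% and 18.5% of the family (ratio -0.14 [-0.19, -0.10]). Gnb3, the subunit of cone photoreceptors and some other cells, was below 1 TPM in both.

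**Figure D2:**
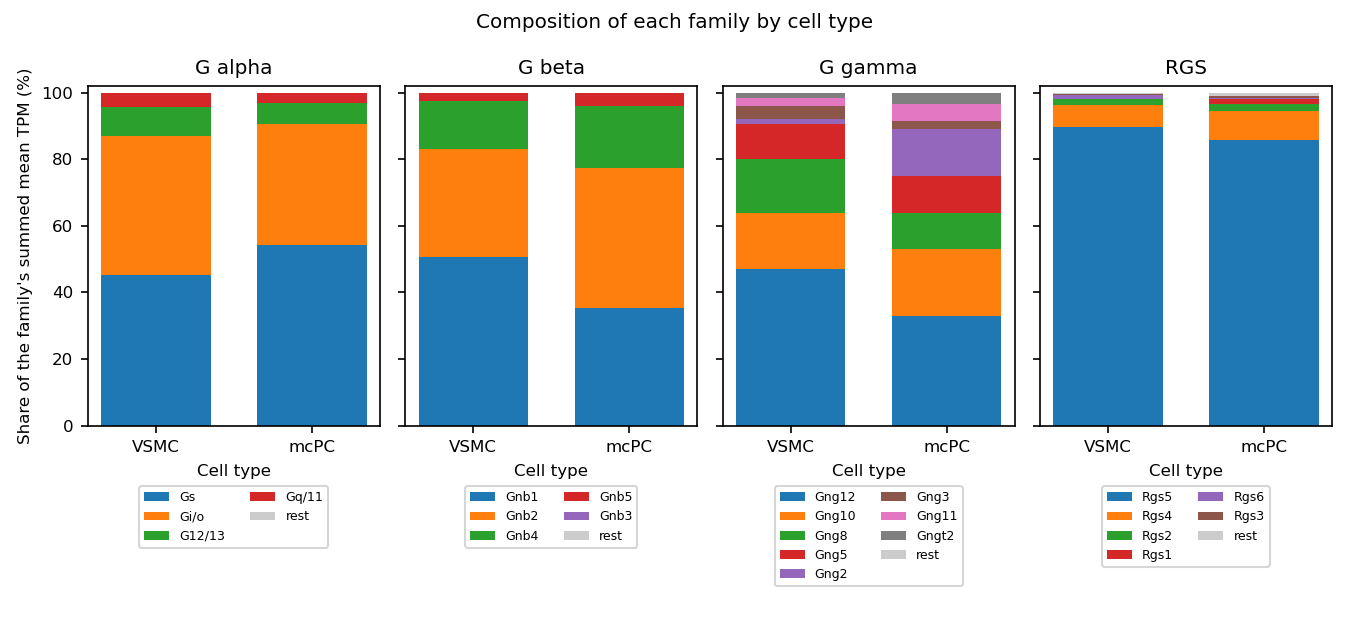
Share (%) of each family's summed mean TPM held by its classes (Gα) or genes (Gβ, Gγ, RGS) in VSMCs and mcPCs, 1 stacked bar per cell type. Gnb1 holds 50.6% of the Gβ bar in VSMCs and 35.2% in mcPCs, Gng2 1.37% and 13.9% of the Gγ bar, and Rgs5 89.8% and 85.9% of the RGS bar.

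Gng12 was the most abundant Gγ gene in both cell types, at 167 TPM in VSMCs and 29.99 in mcPCs, and its share of the family was 47.0% and 33.0% (ratio -0.67 [-0.72, -0.61]). Gng2, a subunit found with Gβ1 in many cells, showed the widest difference, at 4.89 TPM in VSMCs and 12.6 in mcPCs. Its mean normalized counts of 457 and 4189 gave a ratio of 3.19 [3.13, 3.27], and its share of Gγ TPM was 1.37% in VSMCs and 13.9% in mcPCs. Gng12 therefore exceeded Gng2 by 34.2 times in VSMCs and by 2.38 times in mcPCs. Gng10 had 60.4 and 18.1 TPM (ratio 0.08 [0.02, 0.14]) and Gng5 38.1 and 10.3 TPM (ratio -0.06 [-0.13, 0.00]), both widely expressed subunits with nearly even values. Gng8, known from olfactory and vomeronasal neurons, had 57.3 and 9.69 TPM (ratio -0.77 [-0.86, -0.68]), and the neuronal Gng3 14.2 and 2.32 TPM (ratio -0.82 [-0.97, -0.67]). Of the 10 Gγ genes 0 passed 2-fold in the VSMC direction, where 13.8% of all listed genes did. In the mcPC direction 2 (20%) passed it, near the 21.6% of all listed genes.

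The 8 member rows not named with full values so far (the second Gnas row, Gnaz, Gnb3, Gng4, Gng7, Gng11, Gngt2 and Rgs22) lay between 0.0765 and 8.59 TPM in VSMCs and between 0.0283 and 4.51 TPM in mcPCs. Only Gng7 of these was past 2-fold, with 8 reads per sample in VSMCs and 23.3 in mcPCs. The members above 250 TPM in VSMCs (Rgs5, Gnas, Gnai2, Rgs4, Gnb1 and Gnb2) all had ratios between -1.01 and 0.44.

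**Figure D3:**
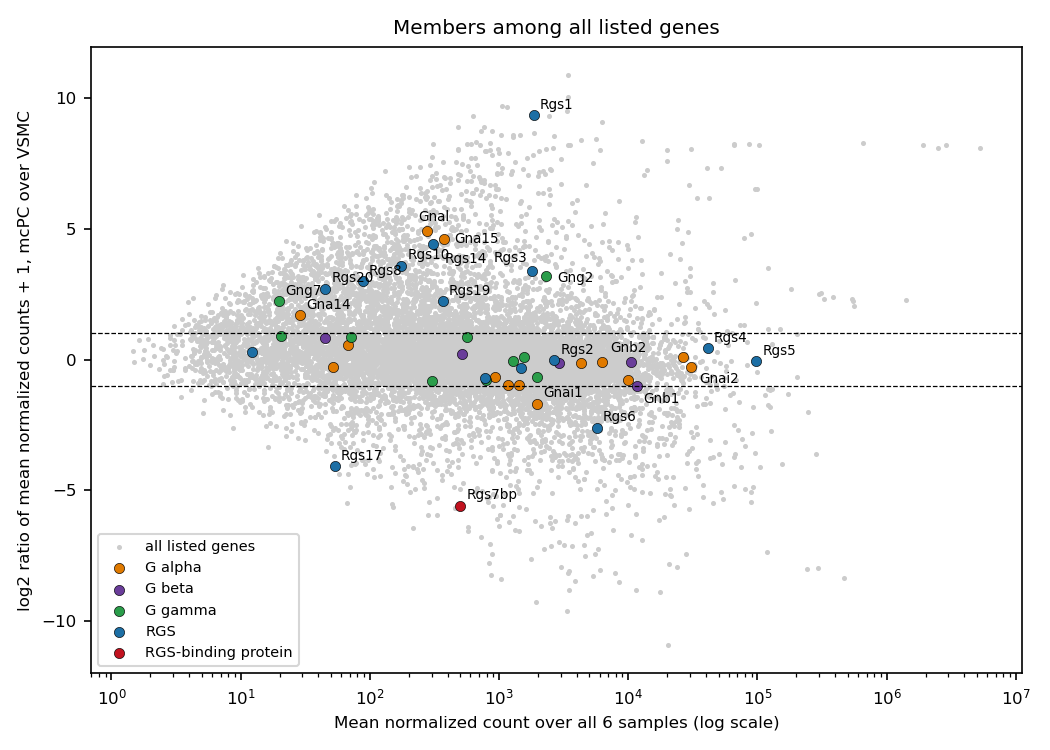
Log2 ratio of mean normalized counts plus 1 (mcPC over VSMC) against the mean normalized count over all 6 samples (log axis) for all 14607 listed genes (grey) and the 45 members (colored by family). Dashed lines mark 2-fold. Rgs1 (9.34) and Rgs7bp (-5.59) are the extremes among members, and most members of high abundance lie between the lines.

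Several of the genes higher in mcPCs are known from leukocytes or neurons, and markers of such cells were higher there too. The members Gnao1 (-0.98), Gng3 (-0.82) and Gng8 (-0.77), also known from neurons, had ratios under 0. All 7 listed leukocyte and microglia markers of 10 sought were past 2-fold higher in mcPCs, with summed TPM of 0.847 in VSMCs and 65.2 in mcPCs. The most abundant was Laptm5 at 38.2 TPM in mcPCs, Ptprc (CD45) was at 0.0659 and 15.1 TPM, and Aif1, Tyrobp and Itgam, which encodes the depleted myeloid antigen CD11b, had no row. None of 6 lymphocyte markers had a row, and 2 of 8 platelet markers had one, with summed TPM of 0.711 and 0.346. A row needs a read in every sample of both cell types, so a missing row does not show absence from mcPCs. The 4 neuronal markers with a row, of 8 sought, summed to 3.15 TPM in VSMCs and 24.1 in mcPCs, led in mcPCs by Tubb3 at 15.7. The 4 astrocyte markers of 6 sought summed to 0.582 and 15.7 TPM, led by Slc1a3, which encodes the depleted antigen GLAST, at 12.7, and 4 of 5 listed oligodendrocyte markers were past 2-fold higher in mcPCs, with sums of 6.71 and 7.54. Of 11 endothelial markers with a row 8 were past 2-fold higher in mcPCs, Cldn5 among them at 0.643 and 15.4 TPM, while Pecam1, which encodes the depleted antigen CD31, had no row. For scale, Rgs1 stood at 32.8 TPM in mcPCs, Gng2 at 12.6, Rgs3 at 11.95 and Rgs19 at 5.55. Gnal, Rgs10, Rgs14 and Gna15 were each under 6 TPM. The markers ran in mcPCs from 0.0865 TPM (Aqp4) to 184 (Esam). This wide range also held members within 2-fold, such as Rgs4 (171) and Gnai2 (143), so lying in it does not set a member apart. The part of the marked cells in the values of the members higher in mcPCs was not tested.

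The steps beside the G proteins were counted from lists of other genes. Of 11 listed Gq effector and calcium release genes of 13 sought, 5 were higher in VSMCs and 2 in mcPCs (median -0.81). Those higher in VSMCs included the inositol trisphosphate receptor Itpr1 (140 and 5.51 TPM, ratio -2.85) and the exchange factor Kalrn (39.1 and 2.15 TPM, ratio -2.38). The 2 higher in mcPCs were Itpr3 (0.478 and 1.40 TPM, ratio 3.29) and Prkcb (1.97 and 4.33 TPM, ratio 2.91), both under 10 TPM. Past 2-fold in VSMCs were thus 5 of 11 genes of the Gq effector steps, where 13.8% of all listed genes were, while neither Gna11 nor Gnaq passed it on this scale. Counts scaled without erythrocyte and globin genes left 4 genes of this list past 2-fold in that direction.

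Genes that act on receptors and on free subunits were counted in the same way, against the same 13.8% and 21.6% of all listed genes. Of 7 listed receptor kinases and arrestins of 8 sought, 1 was past 2-fold in each direction (median 0.25), and these were the paralogs Arrb1 (12.9 TPM in VSMCs and 1.63 in mcPCs, ratio -1.21) and Arrb2 (8.58 and 10.9 TPM, ratio 2.12). Among genes with at least 10 TPM, the next in each direction were the receptor kinases Grk5 (ratio -0.77) and Adrbk1 (0.61), both within 2-fold. Of 9 listed chaperones and GoLoco proteins of 11 sought, 2 were higher in VSMCs and 2 in mcPCs (median -0.25). Pdcl3, a phosducin-like protein, had a ratio of -1.48 and Ric8b, a chaperone of Gαs and Gαolf, of -1.04 (-0.86 on counts scaled without erythrocyte and globin genes), while Gpsm3, a GoLoco protein of blood cells, had 19.4 and 27.2 TPM and a ratio of 2.30, and Gpsm1 was within 2-fold (0.29).

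**Figure D4:**
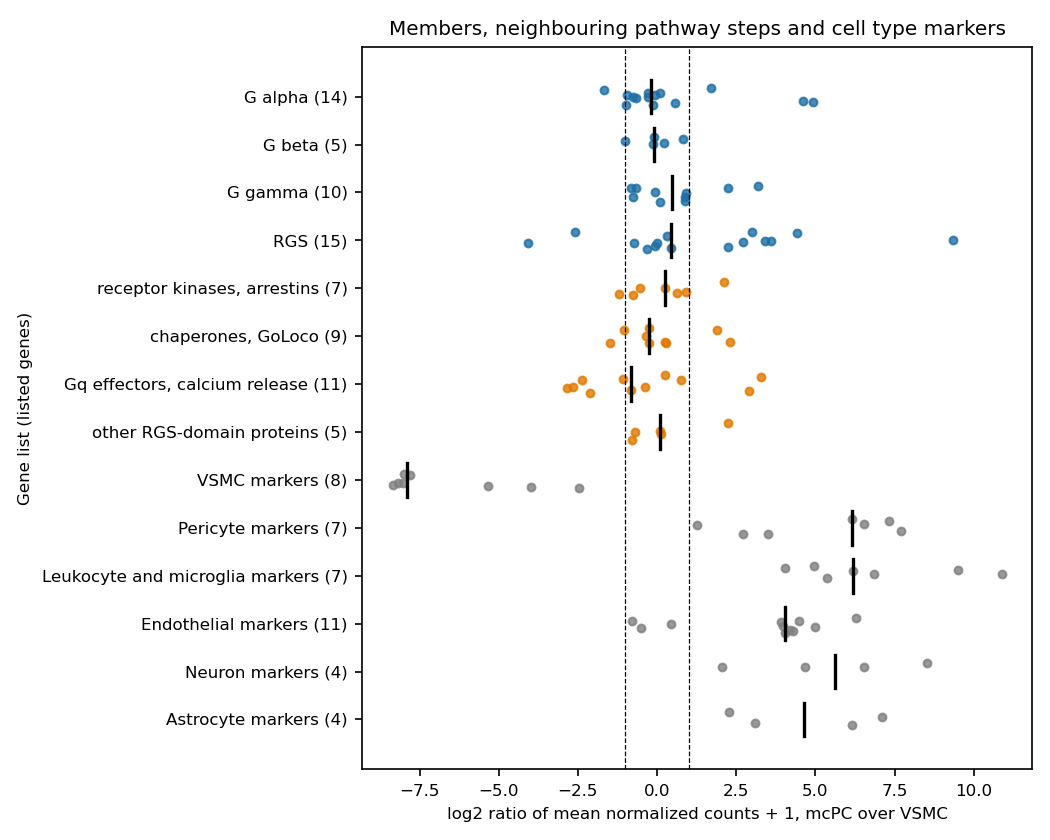
Log2 ratio of mean normalized counts plus 1 (mcPC over VSMC), 1 point per gene and a black bar at each list's median, for the 4 member families (blue), 4 lists of related genes (orange) and 6 marker lists (grey). Numbers in brackets count the genes with a row, and dashed lines mark 2-fold. The Gq effector list has its median at -0.81 and the 4 member families theirs between -0.19 and 0.48.

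The promoters of 3 members are printed because they carry the contrast between an evenly shared gene (Rgs5), a gene scarce in VSMCs (Rgs1) and one scarce in mcPCs (Rgs7bp). Each run covers 250 bases before to 50 after the RefSeq gene start on build GRCr8, 5′ to 3′ on the gene's strand, and capitals mark a GC box (GGGCGG on either strand). Rgs5 lies at chr13:84380827-84381126 (plus strand), Rgs1 at chr13:58573138-58573437 (minus strand) and Rgs7bp at chr2:37965204-37965503 (minus strand).
Rgs5: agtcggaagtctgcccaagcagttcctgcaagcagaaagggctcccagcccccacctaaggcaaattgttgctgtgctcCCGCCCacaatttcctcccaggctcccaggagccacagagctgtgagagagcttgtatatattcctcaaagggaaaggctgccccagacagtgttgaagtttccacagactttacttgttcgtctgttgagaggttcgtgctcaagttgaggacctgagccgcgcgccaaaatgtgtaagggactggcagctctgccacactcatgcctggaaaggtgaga
Rgs1: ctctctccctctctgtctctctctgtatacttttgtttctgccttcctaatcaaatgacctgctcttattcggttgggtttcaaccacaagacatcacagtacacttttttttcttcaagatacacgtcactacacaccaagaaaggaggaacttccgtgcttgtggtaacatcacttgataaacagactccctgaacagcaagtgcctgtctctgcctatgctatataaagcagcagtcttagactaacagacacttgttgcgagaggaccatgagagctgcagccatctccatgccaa
Rgs7bp: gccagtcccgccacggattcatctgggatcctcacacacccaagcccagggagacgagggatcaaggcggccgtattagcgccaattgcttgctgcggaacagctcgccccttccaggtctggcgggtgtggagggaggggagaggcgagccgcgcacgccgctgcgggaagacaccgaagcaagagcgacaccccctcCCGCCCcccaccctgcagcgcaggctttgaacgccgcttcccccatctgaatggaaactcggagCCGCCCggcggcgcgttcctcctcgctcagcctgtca

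RefSeq held 38 such promoters for 36 of the 44 member symbols. A GC box was in 22 of the 38 (57.9%) and in 33.1% of all 33469 promoters of this length. It was in 17 of 22 promoters of members within 2-fold, in 3 of 5 of members higher in VSMCs and in 2 of 11 of members higher in mcPCs. Median GC content was 68.0%, 67.3% and 57.0% in the same order and 51.7% over all promoters. Among the member sets, the one with the lowest share of GC boxes thus also had the lowest GC content. The Rgs1 window, with 44.7% GC, had no GC box, that of Rgs5 (54.3%) had 1 and that of Rgs7bp (67.3%) had 2. The CArG box, the element bound by serum response factor at many smooth muscle genes (CC, then 6 bases that are each A or T, then GG, on both strands), was in none of the 38 member promoters and in 1.64% of all promoters. With so low a share over all promoters, 38 promoters are too few to show a lack of it.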

How the data were processed

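RNA-Seq libraries of 3 VSMC and 3 mcPC samples were sequenced in 4 runs each. Per the study's methods and the submitters' notes, the authors quantified reads against rat cDNA with Salmon 0.8.0 and compared groups with DESeq2. The deposited table holds, for each gene, the authors' mean TPM, mean estimated counts (per run), mean effective length in bases and mean normalized counts (a signal scaled by DESeq2 for library size and transcript length) of each cell type. Per the study's text, the table lists genes with a read in every sample. Its fold changes, standard errors and p-values are the authors' own comparison and were not used. Reads per sample are the deposited mean estimated counts multiplied by 4 runs; of these means, 69.8% in VSMCs and 71.5% in mcPCs were whole multiples of 1 read over 12 runs (tolerance 0.01).

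With means only, no test was run. A gene was counted as higher past 2-fold (a log2 ratio of 1 in size, pseudocount 1), read against all listed genes. Intervals are exact conditional binomial intervals on the summed reads, computed without the pseudocount and tested on simulated data (Python 3.11.15, scipy 1.17.1). Each member with at least 10 TPM in either cell type, or past 2-fold with at least 100 reads in all, is named with values, and in each list of related genes the 2 most unequal genes per direction with at least 10 TPM. Results for 1 list of related genes are not reported here. Members and lists were chosen with earlier results of these data known. Symbols and promoters come from RefSeq (GRCr8).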

Additional observations from a re-analysis of the deposited data

How the results depend on the processing

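The 5 members higher in VSMCs and the 12 higher in mcPCs had the same direction on all 9 scales tried. These scales include the one used to call the members and versions of it with another pseudocount, so the agreement is not independent support. Of the 28 within 2-fold, 17 changed sign on some scale, so that no direction is read from a ratio near 0. TPM as they stand shift the median gene to -1.72, counts at the same total to -0.55 and TPM rescaled without erythrocyte genes to -0.65, and the VSMC count was then 28, 14 and 14, where all listed genes gave 72.3%, 28.7% and 33.1%. In TPM as they stand, 8 of the 45 members, all among the 12, were past 2-fold higher in mcPCs, where 7.003% of all listed genes were. With counts scaled without erythrocyte and all globin genes, a scale chosen after seeing the data, Gnb1 (-0.86) left the VSMC group, which then held 4, and the mcPC group held 15 with Gng4, Gng11 and Gngt2 added, where all listed genes gave 11.4% and 24.4%. Above the median abundance, also chosen after seeing the data, 3 and 3 members passed. A 4-fold limit left 3 members in VSMCs and 11 in mcPCs, where it left 5.64% and 12.04% of all genes. Requiring 0.8 TPM in VSMCs left 5 and 4, where it left 15.7% and 13.01%. The study applied this limit to take out transcripts of unwanted cells. Of the 12 members higher in mcPCs, it drops Gnal, Gna14, Gna15, Gng7, Rgs1, Rgs8, Rgs14 and Rgs20. A pseudocount of 10 moved members with a low value in one cell type most, to 7.98 for Rgs1, -2.89 for Rgs17, 2.07 for Rgs20 and 1.41 for Gng7.

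Share differences (mcPC minus VSMC, percentage points) from mean counts in place of TPM were 7.20 for Gs, -3.31 for Gi/o, -0.010 for Gq/11, -3.88 for G12/13, -16.9 for Gng12 and -5.59 for Rgs5. From normalized counts per length they were 9.70 for Gs and -5.92 for Gi/o. Without the main Gnas row they were 2.34 for Gs and 1.30 for Gi/o, a reversal that follows from leaving out most of Gs. The Gnb1 share kept its difference under every alternative run.

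No paired analysis was possible because the table holds means of each cell type, and leaving out replicates was not run for the same reason. No spread between isolations was computed, and a member with few reads, such as Rgs17 in mcPCs (3.67 per sample), has wide limits from counting alone.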

Other observations

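Of 11 pairs of members that neighbour each other among RefSeq genes (GRCr8), 3 had rows for both genes. Rgs5 and Rgs4 had ratios of -0.06 and 0.44, Rgs8 and Rgs16 3.01 and -0.71, and Gna15 and Gna11 4.62 and -0.96. Rgs1 and Rgs2 lie in a row with Rgs13, Rgs21 and Rgs18, which had no row, and had ratios of 9.34 and -0.01. Proteins that carry an RGS domain under other names (Snx13, Snx14, Snx25, Akap10 and Axin2) were within 2-fold in 4 of 5 cases, with Snx13 at -0.80, Akap10 at -0.70 and Snx14 at 0.12. The exception was Axin2, a Wnt pathway scaffold, at 16.0 TPM in VSMCs and 21.5 in mcPCs (ratio 2.24).

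The effective length of 7 of 45 members (15.6%) differed by more than 1.1-fold between the cell types, against 4.40% of all listed genes. Besides Rgs6 (1.51, mcPC over VSMC) these were Gnal (1.15), Gng8 (0.890), Rgs12 (0.884), Rgs3 (0.874), Rgs20 (0.817) and Rgs8 (0.731).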
